A study of Mus musculus with 12 samples.

Results

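The metallothioneins Mt1, Mt2 and Mt3 were examined in RNA from the trigeminal ganglion (TG), which holds the cell bodies of the sensory neurons of face and jaw, and from Sp5C, the spinal trigeminal nucleus caudalis, a brainstem region where many of their pain fibres end. Every row of the protein-coding table with the symbol Mt1, Mt2 or Mt3 was taken, which gave 3 genes of 21981 and 8 transcripts of 57109, with 3 transcripts of Mt1, 2 of Mt2 and 3 of Mt3. The genes were chosen by their FPKM differences between the CTG and STG libraries in an earlier look at these data, so that contrast is described here without a test. Tests are given for the brainstem nucleus and for the contrast of the tissues.

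Metallothioneins are small, cysteine-rich proteins that hold zinc and copper ions through the sulfur of their cysteines. Mt1 and Mt2 are made in many tissues, in brain mostly by astrocytes and other non-neuronal cells, and their transcription rises with zinc through the metal-sensing factor MTF1 and also with glucocorticoids, interleukin-6 signalling and oxidative stress. Mt3 is found mainly in the nervous system, where it is also known as growth inhibitory factor, and it responds little to metals and glucocorticoids.

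All animals were wild-type C57BL/6 mice, an inbred strain, 8 weeks of age, in a series whose title names chronic inflammatory pain of the temporomandibular joint. The 12 libraries form 4 groups of 3, CTG and STG from the ganglion, CSp5C and SSp5C from the brainstem nucleus. The labels do not spell out the letters C and S or name a treatment for either, so the letters are used as they stand and differences are given as C minus S. Whether the 3 libraries of a group stem from different animals is not stated in the labels, and p-values therefore cover the spread among these samples alone, which could be technical. Levels are FPKM (fragments per length of transcript and per library size), summed over the transcripts of a gene. Differences are in mean log2(FPKM + 1), a scale that understates the change of low genes.

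Sensory neuron markers (9 genes) summed to 1293 to 1523 FPKM in TG libraries and 44.6 to 78.1 FPKM in Sp5C libraries, whereas markers of central neurons (7 genes) summed to 0.578 to 1.78 FPKM in TG and 415 to 457 FPKM in Sp5C, so both tissues carried the markers of their label. Low values of long transcripts fell on whole-number steps in part (50 to 63.3% within 0.1 of a whole number, where the width of that window alone gives 20%), which puts the libraries at roughly 22.6 to 31.8, in units of 1000000 fragments. At that estimate at most 490 to 3673 fragments lay behind the main Mt1 transcript in a library, 351 to 2617 behind that of Mt2 and 1137 to 2080 behind that of Mt3. Some TG libraries stood apart by markers of other cells or tissues, whose source the labels do not give. The neutrophil and bone marrow list (12 genes) averaged 4.86, 0.91 and 3.19 in CTG replicates 1 to 3 against 1.23, 0.38 and 1.15 in STG, and the pituitary list (8 genes) averaged 5.65 in STG replicate 1 against 0.28 to 1.45 in the other TG libraries.

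The coding sequences show what the family shares. They are given 5′ to 3′ from the GENCODE M21 transcripts (mouse build GRCm38, plus strand of chromosome 8), with the codons for the metal-binding cysteines in capitals.
Mt1 (Mt1-201, spanning chr8:94179082-94180327): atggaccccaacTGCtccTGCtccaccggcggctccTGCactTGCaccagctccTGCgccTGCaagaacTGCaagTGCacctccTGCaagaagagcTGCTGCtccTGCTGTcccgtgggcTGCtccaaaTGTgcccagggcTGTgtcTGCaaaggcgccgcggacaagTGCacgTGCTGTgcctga
Mt2 (Mt2-201, spanning chr8:94172664-94173568): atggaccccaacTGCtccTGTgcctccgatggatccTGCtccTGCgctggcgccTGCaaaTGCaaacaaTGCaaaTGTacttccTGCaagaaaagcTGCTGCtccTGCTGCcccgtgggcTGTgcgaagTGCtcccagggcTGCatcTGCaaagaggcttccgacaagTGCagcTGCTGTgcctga
Mt3 (Mt3-201, spanning chr8:94152607-94154146): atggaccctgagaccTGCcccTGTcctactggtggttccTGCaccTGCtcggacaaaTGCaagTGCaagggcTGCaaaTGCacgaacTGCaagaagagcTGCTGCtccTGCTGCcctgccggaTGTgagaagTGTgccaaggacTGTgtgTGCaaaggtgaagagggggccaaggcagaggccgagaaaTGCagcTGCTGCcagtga

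Each sequence has 20 cysteine codons. They make up 32.8% of the 61 codons of Mt1 and of Mt2, and 29.4% of the 68 codons of Mt3. Mt1 and Mt2 share 79.6% of aligned coding positions, Mt1 and Mt3 66.2%, and Mt2 and Mt3 67.6%. The longest identical stretch between any 2 of them is 27 bases (Mt1 and Mt3) and 20 bases for each other pair. No window of 50 bases of the Mt1 or Mt3 main transcript occurs in a transcript of another gene in that annotation, whereas 210 of 462 such windows of Mt2 also lie, on the opposite strand, in Gm45774, an antisense gene that overlaps it. The library kit keeps strand, but whether the counting used it is not given in the sources used here, so reads of Mt2 and Gm45774 may not have been told apart.

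The promoter windows (250 bases before to 50 after the start, RefSeq, GRCm38.p6, plus strand) are shown because these windows differ in matches to the core of the metal response element, the site bound by MTF1. The core was searched as TGCACNC or TGCGCNC on both strands, and matches are in capitals.
Mt1 (chr8:94178839-94179138): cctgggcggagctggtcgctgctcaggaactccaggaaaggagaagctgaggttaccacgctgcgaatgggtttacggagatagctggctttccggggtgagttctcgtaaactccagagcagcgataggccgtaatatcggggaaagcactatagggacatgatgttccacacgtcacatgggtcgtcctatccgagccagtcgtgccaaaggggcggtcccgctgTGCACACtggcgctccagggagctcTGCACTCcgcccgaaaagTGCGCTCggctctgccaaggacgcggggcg
Mt2 (chr8:94172368-94172667): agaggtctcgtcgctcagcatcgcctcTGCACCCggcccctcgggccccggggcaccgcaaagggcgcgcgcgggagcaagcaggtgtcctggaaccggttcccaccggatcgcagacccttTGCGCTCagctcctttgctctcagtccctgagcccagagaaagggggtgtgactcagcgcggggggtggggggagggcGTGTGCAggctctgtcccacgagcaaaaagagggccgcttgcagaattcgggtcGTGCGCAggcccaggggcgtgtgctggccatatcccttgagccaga
Mt3 (chr8:94152357-94152656): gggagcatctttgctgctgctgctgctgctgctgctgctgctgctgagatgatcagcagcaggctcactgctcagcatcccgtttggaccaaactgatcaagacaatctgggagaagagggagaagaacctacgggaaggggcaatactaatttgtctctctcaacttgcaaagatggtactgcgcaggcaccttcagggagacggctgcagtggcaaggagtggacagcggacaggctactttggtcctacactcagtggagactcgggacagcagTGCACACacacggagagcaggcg

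The window held 3 matches in Mt1, 4 in Mt2 and 1 in Mt3, with no overlap among them. The RefSeq starts do not all match the GENCODE transcripts. The Mt2 window ends at 94172667, and Mt2-201 starts only at 94172664. The Mt1 window ends at 94179138, before the starts of Mt1-203 (94179211) and Mt1-202 (94179241). Sequence next to such later starts was not searched, so the counts hold for these windows alone. Of 32851 promoter windows in the table, 25.7% held at least 1 match, 1.97% at least 3 and 0.517% at least 4. The Mt2 window also held 1 match to the antioxidant element core TGACNNNGC, which 12.4% of windows contain, and none of the 3 windows held AGAACA, a core of the glucocorticoid receptor site present in 19.0% of windows. Such matches describe letters in a window and do not show that a factor binds there.

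In the ganglion, both inducible metallothioneins were higher in every CTG library than in every STG library, and Mt3, summed over its transcripts, was not. Mt1 stood at 60.1, 64.9 and 69.9 FPKM in CTG replicates 1 to 3, against 37.0, 36.7 and 38.5 FPKM in STG. The STG libraries lay within 2 FPKM of each other, and the lowest CTG library was well above them. The means were 65.0 ± 4.93 and 37.4 ± 0.966 FPKM (SD, n = 3 libraries each), a ratio of 1.74 and a log2 difference of 0.78.

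Mt2 stood at 54.5, 73.9 and 64.7 FPKM in CTG and at 33.4, 32.1 and 28.1 FPKM in STG. The groups did not overlap, and CTG replicate 2 was the highest library. The means were 64.4 ± 9.67 and 31.2 ± 2.78 FPKM, a ratio of 2.06 and a log2 difference of 1.01. Mt3 stood at 91.3, 102.5 and 127 FPKM in CTG and at 89.5, 89.2 and 92.0 FPKM in STG. CTG replicate 1 fell within the STG range, and replicate 3 gave most of the difference of 0.23 in log2, which was 0.10 without it. Among 12906 genes measured in TG, the differences of 76 genes exceeded that of Mt1, 53 that of Mt2 and 637 that of Mt3. Groups that do not overlap with CTG higher were found for 4.47% of those genes, and 0.00775% (1 gene) passed limma's test in this contrast. As the genes were chosen with this contrast known, nothing is read from these counts.

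**Figure D1:**
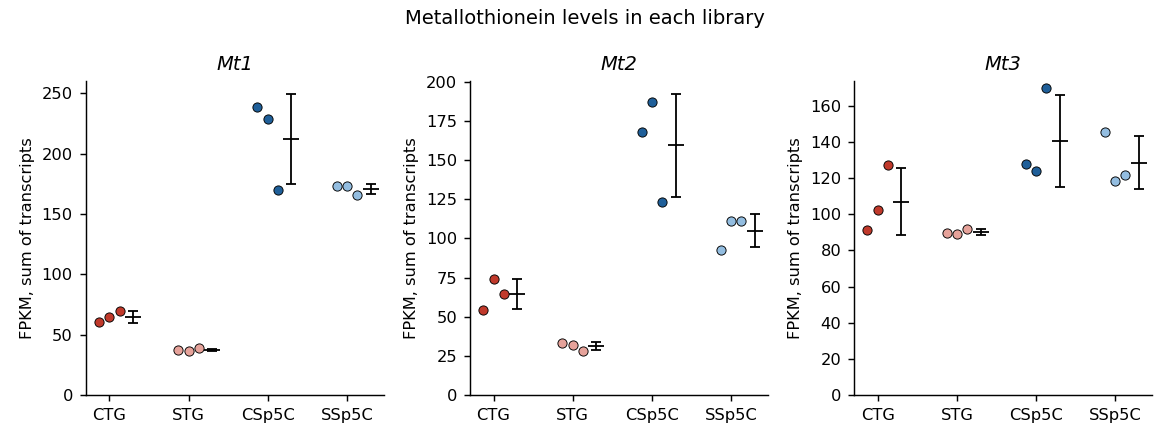
FPKM of Mt1, Mt2 and Mt3 in each of the 12 libraries, as points by group in replicate order (1 to 3 from left to right), with the group mean and SD (n = 3) beside them. The CTG points lie above the STG points for Mt1 and Mt2, the Sp5C points lie above the TG points for both, and the groups overlap for Mt3.

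Neutrophil and bone marrow markers (12 listed genes) summed to 12.8 to 884 FPKM in CTG and 4.22 to 34.0 FPKM in STG. Of the 10 measured, 0 passed limma's test and 2 had an unadjusted p under 0.05 (4.7% of all genes did). Some, such as Mpo (10.1 FPKM in CTG, 0.295 in STG), reached the filter mean of 1 FPKM only through CTG, so their direction was fixed in advance. CTG replicate 2, whose bone marrow list level (0.91) lay within the STG range of 0.38 to 1.23, had the highest Mt2 of the ganglion at 73.9 FPKM, and CTG replicate 3, with a list level of 3.19, had the highest Mt1 at 69.9 FPKM. Without CTG replicate 1, the library highest in that list, the log2 differences were 0.83 for Mt1 and 1.13 for Mt2. Without STG replicate 1, the library with pituitary markers, they were 0.77 and 1.06. The part of either marker list in the metallothionein values was not tested. In bulk tissue, fewer cells of a type and less RNA per cell cannot be told apart.

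In the brainstem nucleus, all 3 members had higher means in CSp5C, but none passed the test, and 1 CSp5C library held Mt1 and Mt2 near the SSp5C level. Mt1 stood at 239, 229 and 170 FPKM in CSp5C replicates 1 to 3, against 173, 173 and 166 FPKM in SSp5C. Replicates 1 and 2 of CSp5C were above every SSp5C library and replicate 3 was among them. The means were 212 ± 37.2 and 171 ± 4.30 FPKM, a log2 difference of 0.30 (SE 0.13, 95% interval −0.002 to 0.60, limma adjusted p = 0.931).

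The CSp5C libraries held 168, 187 and 123 FPKM of Mt2, the SSp5C libraries 92.7, 111 and 111 FPKM. Every CSp5C library was above every SSp5C library, again with replicate 3 the lowest of CSp5C. The means were 159 ± 33.0 and 105 ± 10.6 FPKM, a ratio of 1.52 and a log2 difference of 0.58 (SE 0.16, 95% interval 0.19 to 0.97, unadjusted p = 0.0101, limma adjusted p = 0.904). For Mt3 the CSp5C libraries held 128, 124 and 170 FPKM and the SSp5C libraries 145, 118 and 122 FPKM. Its groups overlapped, and the library highest in Mt3 was CSp5C replicate 3, the library lowest in Mt1 and Mt2 among CSp5C. Its means were 140 ± 25.4 and 128 ± 14.7 FPKM, a log2 difference of 0.12 (95% interval −0.21 to 0.45, limma adjusted p = 0.934).

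In this comparison 4 of 12690 genes (0.0315%) passed limma's test, 0 of 3 members among them, and 637 genes (5.02%) had an unadjusted p under 0.05, Mt2 among them. Groups without overlap and with CSp5C higher were seen in 4.69% of genes and in 1 of 3 members. Without CSp5C replicate 3 the differences were 0.45 for Mt1 (limma adjusted p = 0.142), 0.76 for Mt2 (0.178) and −0.024 for Mt3 (0.985). The oligodendrocyte list (6 genes) averaged 6.49, 6.47 and 6.18 on the log2 scale in CSp5C and 6.72, 6.64 and 6.66 in SSp5C, with summed FPKM of 628 to 801 against 836 to 906. All 6 of its members had lower means in CSp5C, 0 of 6 passed limma's test and 3 had an unadjusted p under 0.05. Its part in the metallothionein values was not tested. The astrocyte list (12 genes) averaged 6.38, 6.32 and 6.10 in CSp5C and 6.20, 6.34 and 6.37 in SSp5C. The groups overlapped, and CSp5C replicate 3 was the lowest of the 6 libraries. The part of the astrocyte list in the metallothionein values was not tested either.

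Against the brainstem nucleus, the ganglion had less RNA of all 3 genes, with log2 differences from −1.92 for Mt1 to −0.44 for Mt3. Mt1 averaged 51.2 ± 15.4 FPKM in TG and 192 ± 33.0 FPKM in Sp5C (SD, n = 6 libraries each), so the Sp5C mean was 3.74 times the TG mean (log2 difference TG minus Sp5C −1.92, SE 0.08, limma adjusted p = 1.01e-09). Mt2 averaged 47.8 ± 19.2 FPKM in TG and 132 ± 37.0 FPKM in Sp5C (−1.50, SE 0.11, limma adjusted p = 2.39e-07). The 6 TG libraries lay below all 6 Sp5C libraries for both genes, as they did for 26.1% of genes.

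Mt3 averaged 98.6 ± 14.8 FPKM in TG and 134 ± 19.7 FPKM in Sp5C. CTG replicate 3, at 127 FPKM, was above 3 of 6 Sp5C libraries, so the tissues overlapped, and the difference was −0.44 (SE 0.10, limma adjusted p = 0.00179). With the C libraries alone it was −0.39 and did not pass (limma adjusted p = 0.0836). With same-numbered CTG and CSp5C libraries as pairs, this difference had a limma adjusted p of 0.00513. That pairing was added after the data were seen, from correlations in these same libraries, so its p is not read as a pass. The labels do not say what the number marks. The TG library was the lower one in each of these 3 pairs, at 91.3, 102.5 and 127 FPKM in CTG replicates 1 to 3 and 128, 124 and 169.7 FPKM in CSp5C replicates 1 to 3. All 3 members were called lower in TG, in a contrast where 35% of 13081 genes were called lower and 71.2% were called in either direction, so a call by itself does not set the members apart. Of the 13081 genes, 96.8% had a higher TG minus Sp5C difference than Mt1, 94.8% than Mt2 and 80.1% than Mt3.

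By level, Mt3 ranked 376 of 12906 genes of at least 1 FPKM in TG, ahead of Mt1 at 963 and Mt2 at 1078. In Sp5C, Mt1 ranked 137 of 12690, with Mt3 at 240 and Mt2 at 248. The order of groups for Mt1 and Mt2 was CSp5C, SSp5C, CTG and STG by mean. For Mt1 the first 2 of these overlapped, whereas for Mt2 no neighbours did. For Mt3 the order of means was the same, but each group overlapped its neighbour in that order.

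The make-up of the family therefore differed between the tissues. Mt3 gave 51.0 ± 6.73% of the summed FPKM of the 3 genes in TG and 29.8 ± 5.67% in Sp5C, with every TG library above every Sp5C library. Mt1 gave 25.6 ± 2.41% in TG and 41.7 ± 2.68% in Sp5C, again without overlap. Both differences had an exact permutation p = 0.00216 (two-sided, 924 splits, the smallest p these splits allow, and 0.00325 after adjustment over the 3 shares). The splits took no account of the letters or of any pairing between the tissues. As the 3 shares of a library are parts of the same sum, these results are not separate evidence. The share of Mt2 was 23.5 ± 4.73% in TG and 28.5 ± 4.18% in Sp5C, a difference that did not pass (exact permutation p = 0.0823).

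The summed level was 236 ± 28.3 FPKM in CTG and 159 ± 0.973 FPKM in STG. It was 512 ± 43.1 FPKM in CSp5C and 404 ± 6.52 FPKM in SSp5C. By group, Mt3 made up 45.1% in CTG and 56.8% in STG, and 27.8% in CSp5C and 31.8% in SSp5C. CTG libraries held 0.879 to 1.10 times as much Mt1 as Mt2, and STG libraries 1.11 to 1.37 times. The ratio was 1.22 to 1.42 in CSp5C and 1.49 to 1.87 in SSp5C, so in each tissue every C library had less Mt1 per Mt2 than every S library. These ratios follow in part from the levels above and were not tested.

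**Figure D2:**
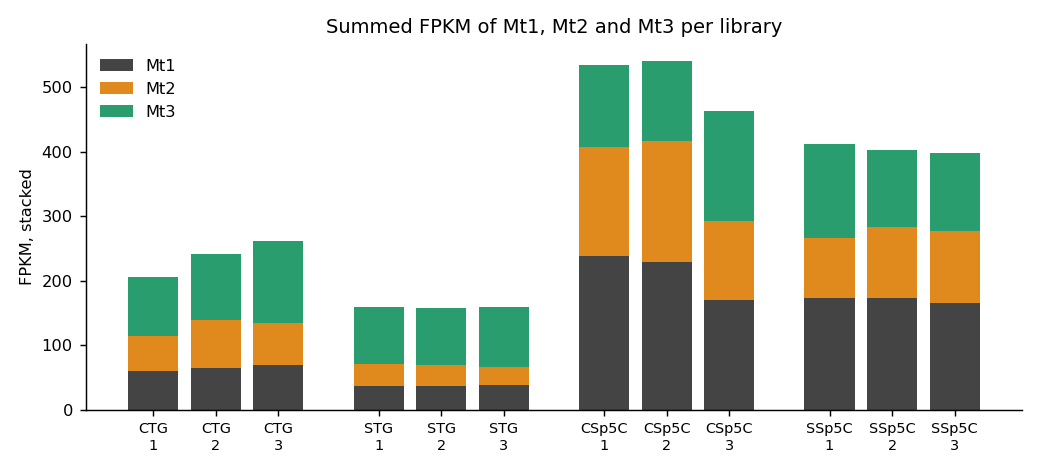
FPKM of Mt1, Mt2 and Mt3 stacked for each library, with groups and replicate numbers along the horizontal axis. The 3 STG bars are nearly level at 158 to 160 FPKM, the CTG bars reach 206 to 262 FPKM, and Mt3 takes a larger share of each TG bar than of any Sp5C bar.

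Relative to the mean of their tissue, Mt1 and Mt2 moved together across libraries and Mt3 largely apart from them. After the mean of its tissue was subtracted from each library, the log2 values of Mt1 and Mt2 had Pearson r = 0.94 over 12 libraries, and each was the other's closest gene among 12072 genes of at least 1 FPKM in both tissues. These libraries include the C and S groups in which both genes stood apart, so r is a description. Within CTG and within CSp5C, the same library was lowest in both genes (replicate 1 and replicate 3). Within STG, replicate 3 was highest in Mt1 (−0.35) and lowest in Mt2 (−0.65). Within SSp5C, replicate 3 was lowest in Mt1 (−0.19) and highest in Mt2 (−0.20). With tissue means subtracted, Mt1 with Mt3 gave r = 0.36 and Mt2 with Mt3 0.30, against 0.81 and 0.76 without the subtraction. Mt3 lay highest above its tissue mean in replicate 3 of both C groups, by 0.38 in CTG and 0.35 in CSp5C. In CTG replicate 3 Mt1 and Mt2 were also above theirs, by 0.50 and 0.52, whereas in CSp5C replicate 3 they were below, at −0.16 and −0.06.

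After Mt2, the genes most like Mt1 by this measure were Bud31, a splicing factor (r = 0.88), Cebpd, a transcription factor induced by glucocorticoids and cytokines (0.85), the fucosidase Fuca2 (0.84) and the ubiquitin-conjugating enzyme Ube2l3 (0.83). After Mt1, those most like Mt2 were Mtch1, a mitochondrial outer membrane protein (0.90), the endothelial nitric oxide synthase trafficking factor Nostrin (0.87), Stat3, the transcription factor downstream of interleukin-6 (0.86), and Zfp825 (0.86). Mt3 was closest to the heat shock co-chaperone Dnaja4 (0.92), the Ran GTPase activator Rangap1 (0.92), Calr3 (0.91), the nuclease Endog (0.91) and the iron-sulfur assembly factor Ciao1 (0.91). Without subtracting tissue means, r over 12 libraries reflects mostly tissue. Mt1 was then closest to Nup50, Kcnn2, D17H6S53E, Rpl22l1 and Polr2m (0.98), Mt2 to Mt1 (0.97), Nostrin, Oscp1, Crebrf and Kcnn2 (0.94 to 0.96), and Mt3 to Stip1, Eef1a2, Endog, Bscl2 and Auh (0.93 to 0.94).

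**Figure D3:**
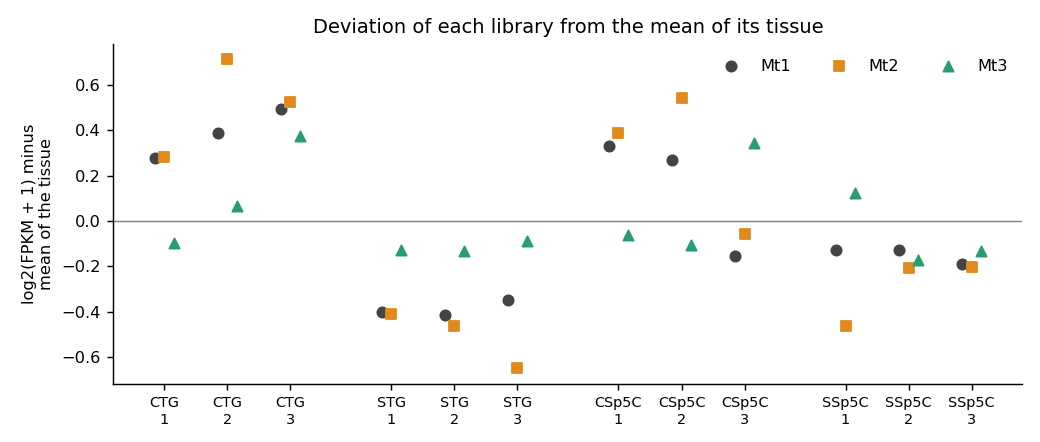
Difference of each library from the mean of the 6 libraries of its tissue, in log2(FPKM + 1), for Mt1 (circles), Mt2 (squares) and Mt3 (triangles). Mt1 and Mt2 lie above 0 in the CTG libraries and below 0 in the STG libraries, and CSp5C replicate 3 has Mt1 and Mt2 below 0 with Mt3 at 0.35.

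Nearly all of each gene's FPKM came from 1 spliced transcript. The share was 88.5 to 98.4% for Mt1-201, 97.9 to 99.7% for Mt2-201 and 91.8 to 95.6% for Mt3-201 over the libraries. In CTG replicate 1, Mt1-203 (ENSMUST00000212291), a form with 2 exons that retains an intron, reached 6.07 FPKM, against 0.495 to 3.18 FPKM in the other 11 libraries. The main transcripts differed between the tissues as the genes did, by −1.99 for Mt1-201, −1.51 for Mt2-201 and −0.46 for Mt3-201 (limma adjusted p = 2.25e-08, 1.74e-06 and 0.00475). In that fit 27% of 20082 transcripts were called lower in TG and 53.5% in either direction.

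The minor transcripts that reached a mean of 1 FPKM did not pass between the tissues. Mt1-202 (ENSMUST00000211807), an unspliced form, averaged 1.97 FPKM in TG and 2.21 FPKM in Sp5C (log2 difference −0.17, 95% interval −0.68 to 0.34, limma adjusted p = 0.569). Mt1-203 had a difference of −0.44 (interval −1.09 to 0.21, 0.232), Mt3-202 −0.22 (interval −0.59 to 0.16, 0.311) and Mt3-203 −0.11 (interval −0.53 to 0.30, 0.632). Mt2-202 stayed under the filter. The interval of Mt1-202 does not reach the difference of Mt1-201, but the difference between these 2 transcripts was not tested, and how StringTie divided reads between such overlapping forms cannot be seen from the tables. Between CSp5C and SSp5C, 0 of 7 transcripts passed limma's test (adjusted p from 0.944 to 0.980), 1 had an unadjusted p under 0.05 (Mt2-201, 0.0175), and 0.0206% of 19425 transcripts passed.

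The 3 genes lie in a row on the plus strand of chromosome 8 behind Mt4 (94137197 to 94139031), a member known from squamous epithelium. Mt4 was listed at 0 in 11 libraries and at 0.122 FPKM in CTG replicate 2. The gaps from Mt4 to Mt3, Mt3 to Mt2 and Mt2 to Mt1 are 13575, 18517 and 5513 bases. Within 100 kb of the 4 genes, 3 other protein-coding genes and 2 annotated long non-coding RNAs had values. None of the 3 protein-coding neighbours passed limma's test between the letters in either tissue, and 1 had an unadjusted p under 0.05, in TG. That gene, Nup93, a nuclear pore protein, stood at 32.7 ± 3.47 FPKM in CTG and 40.2 ± 1.49 FPKM in STG (log2 difference −0.30, limma adjusted p = 0.960), and it was higher in TG than in Sp5C (1.76, limma adjusted p = 3.05e-09).

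Ogfod1, a ribosomal protein hydroxylase, was lower in TG than in Sp5C like the metallothioneins (−1.09, limma adjusted p = 6.66e-10), but stood at 9.97 ± 0.221 FPKM in CTG and 9.28 ± 0.625 FPKM in STG (0.10, limma adjusted p = 0.960). Bbs2, a component of the ciliary BBSome, differed by 0.20 between TG and Sp5C (limma adjusted p = 0.0172) and by −0.09 between CTG and STG (0.960). In Sp5C, the adjusted p of these 3 neighbours for C minus S was 0.931 to 0.939. The non-coding Gm45804, within the span of Nup93, stood at 1.70 ± 0.531 FPKM in CTG and 3.66 ± 0.612 FPKM in STG, and Gm39228, just downstream of Mt1, averaged 0.190 FPKM or less in every group. The non-coding genes were not tested.

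**Figure D4:**
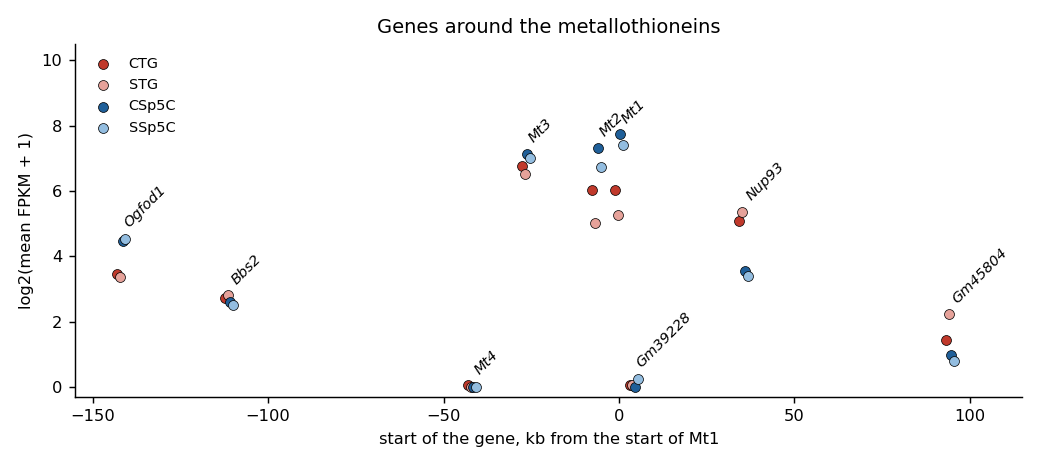
Group means as log2(mean FPKM + 1) of the genes around the metallothioneins against the distance of each gene's start from that of Mt1 in kb, with points of a gene offset sideways by group. Mt3, Mt2 and Mt1 stand far above Mt4, which is near 0, and the CTG mean is above the STG mean for Mt1 and Mt2 but below it for Nup93 and Gm45804.

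None of the genes that handle zinc passed the test between the letters. Of 25 listed zinc genes, 18 were measured in TG and 0 passed limma's test for CTG against STG, with 1 at an unadjusted p under 0.05 (4.7% of all genes). That gene was Slc39a8, a zinc importer of the plasma membrane, at 6.93 ± 1.07 FPKM in CTG and 4.87 ± 0.269 FPKM in STG (log2 difference 0.43, limma adjusted p = 0.960). Next by p were the importers Slc39a13, at 9.21 ± 0.372 FPKM in CTG and 9.99 ± 0.164 in STG, and Slc39a12, at 1.04 ± 0.655 FPKM in CTG and 1.505 ± 0.223 in STG. The median difference of the list was −0.02, against −0.01 over all genes. The metal sensor Mtf1 stood at 3.43 ± 0.162 FPKM in CTG and 3.68 ± 0.283 FPKM in STG, and the zinc exporter Slc30a1, a classical MTF1 target, at 4.15 ± 0.421 and 4.08 ± 0.288 FPKM.

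In Sp5C, 20 zinc genes were measured, 0 passed limma's test and 1 had an unadjusted p under 0.05 (5.02% of all genes). That gene was the importer Slc39a3, at 12.1 ± 0.385 FPKM in CSp5C and 14.0 ± 0.373 FPKM in SSp5C (−0.19, limma adjusted p = 0.904). Slc30a1 stood at 5.53 ± 0.545 and 6.17 ± 0.236 FPKM, and Slc39a11 at 3.74 ± 0.587 and 3.19 ± 0.370 FPKM. Between the tissues, 7 of 20 zinc genes were called higher in TG, 8 lower and 5 were not called. Over all genes, 35% were called lower and 71.2% in either direction. The smallest p went to Slc30a3, which loads zinc into synaptic vesicles (0.0232 FPKM in CTG, 0.0762 in STG, 9.96 in CSp5C and 10.6 in SSp5C, log2 difference −3.41). Slc39a12 (−4.08) and the exporter Slc30a10 (−1.25) followed. Slc30a3 and Slc30a10, the latter at 0.357 FPKM in CTG and 2.09 in CSp5C, reached the filter mean only through Sp5C. The direction of both was thus fixed in advance.

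Copper handling genes had higher means in CTG for 14 of 14 measured, with a median difference of 0.06, and 0 passed limma's test or had an unadjusted p under 0.05. The smallest p were those of the superoxide dismutase Sod1 (0.15), the copper chaperone Cox17 (0.16) and the metalloreductase Steap4 (0.20). In Sp5C, 9 of 14 had higher means in CSp5C and 0 passed, with 1 unadjusted p under 0.05 (5.02% of all genes). It was that of the copper transporter Slc31a2, at 4.78 ± 0.589 FPKM in CSp5C and 3.59 ± 0.579 FPKM in SSp5C (0.34, limma adjusted p = 0.928). The importer Slc31a1 and the pump Atp7a differed by 0.12 each. Between the tissues 7 were called higher in TG and 4 lower (71.2% of all genes were called, 35% lower). The metalloreductases Steap2 (−1.61), Steap4 (2.15) and Steap3 (2.07) led by p. Steap4, at 4.87 FPKM in CTG and 0.293 in CSp5C, reached the filter mean only through TG, so its direction was fixed in advance.

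Of 14 oxidative stress genes, 11 had higher means in CTG (median 0.08), 0 passed limma's test and 1 had an unadjusted p under 0.05 (4.7% of all genes). That gene was the glutathione transferase Gstm1, at 14.99 ± 1.32 FPKM in CTG and 12.9 ± 0.662 FPKM in STG (0.20). Glutathione reductase Gsr (0.14) and G6pdx, which supplies NADPH (0.20), came next. In Sp5C 7 of 14 had higher means in CSp5C, and 0 passed or had an unadjusted p under 0.05, with Prdx1 at −0.19, Srxn1 at −0.09 and the regulator Nfe2l2 at 0.17. Between the tissues 8 were called higher in TG and 5 lower (71.2% of all genes were called, 35% lower). Gstm1 stood at −1.56, Gsr at 0.82 and the haem oxygenase Hmox1 at 1.11.

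Genes induced by glucocorticoids had higher means in the C libraries of both tissues, like Mt1 and Mt2, though 0 of 15 passed limma's test in either. In TG, 13 of 15 had a higher mean in CTG. CTG was above STG in every library for 8 of 15 (4.47% of all genes), and 7 had an unadjusted p under 0.05 (4.7% of all genes). The median difference was 0.34, against −0.01 over all genes. The mean log2 level of the list was 4.20, 4.43 and 4.24 in CTG and 4.09, 3.92 and 4.04 in STG. The smallest p went to the cell cycle inhibitor Cdkn1a (49.1 ± 4.70 FPKM in CTG, 37.1 ± 3.30 in STG, 0.40), the sulfotransferase Sult1a1 (0.26) and Fkbp5, a co-chaperone of the glucocorticoid receptor, at 14.4 ± 1.92 FPKM in CTG and 10.9 ± 0.585 in STG (0.37), each with a limma adjusted p of 0.960.

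In Sp5C, 14 of 15 had a higher mean in CSp5C. CSp5C was above SSp5C in every library for 9 of 15 (4.69% of all genes), and 10 had an unadjusted p under 0.05 (5.02%). The median difference was 0.37, against 0.00 over all genes. The mean log2 level was 3.71, 4.07 and 3.85 in CSp5C and 3.49, 3.52 and 3.47 in SSp5C. In CSp5C replicate 3 this level was above all SSp5C libraries, as that of Mt2 was and that of Mt1 was not. The smallest p went to the mTOR inhibitor Ddit4 at 25.1 ± 2.72 FPKM in CSp5C and 17.3 ± 0.629 in SSp5C (0.51, limma adjusted p = 0.365), Tsc22d3, the leucine zipper protein GILZ (0.37, 0.500), and Cdkn1a (0.55, 0.904). The receptor gene Nr3c1 stood at 18.5 ± 2.37 FPKM in CTG and 19.1 ± 3.82 FPKM in STG, and at 20.04 ± 2.93 FPKM in CSp5C and 21.5 ± 0.698 in SSp5C. This list was put together with earlier results of these data known, so its counts describe and do not test. Between the tissues 7 of 15 were called higher in TG, with Cdkn1a at 2.75, Sult1a1 at 2.76 and Cebpd at 0.93. Lower in TG were 2 of them, Zbtb16 (−0.76) and the phosphatase Dusp1 (−0.42), and 6 were not called. Over all genes, 35% were called lower and 71.2% in either direction.

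**Figure D5:**
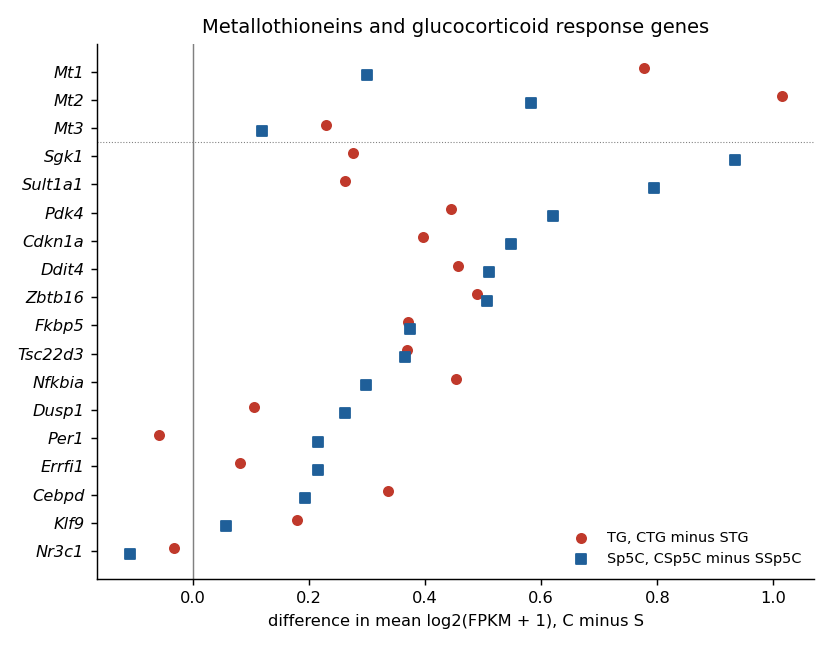
Difference in mean log2(FPKM + 1), C minus S, for Mt1, Mt2 and Mt3 (above the dotted line) and the 15 glucocorticoid response genes, in TG (circles, CTG minus STG) and Sp5C (squares, CSp5C minus SSp5C). Mt1 and Mt2 lie at 0.78 and 1.01 in TG and at 0.30 and 0.58 in Sp5C, and all but Per1 and Nr3c1 in TG and Nr3c1 in Sp5C lie right of 0.

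Of the interleukin-6 family and STAT3 genes, 9 of 9 measured had higher means in CTG (median 0.09) and 6 of 8 in CSp5C (median 0.11), and 0 passed limma's test or had an unadjusted p under 0.05 in either tissue. The smallest p in TG were those of the oncostatin M receptor Osmr (0.23), the transcription factor Cebpb (0.42) and the shared receptor Il6st (0.20), and in Sp5C those of Il6st (0.22), the leukaemia inhibitory factor receptor Lifr (0.16) and Cebpb (0.17). Stat3 stood at 43.6 ± 1.45 FPKM in CTG and 41.7 ± 0.233 FPKM in STG, and at 12.1 ± 0.337 FPKM in CSp5C and 11.6 ± 0.353 FPKM in SSp5C. Between the tissues 8 of 9 were called higher in TG and 0 lower (71.2% of all genes were called, 35% lower). Stat3 (1.76), Lifr (1.87) and Jak1 (0.87) led by p.

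Lrp1, a receptor that takes up metallothionein from outside the cell, stood at 34.8 ± 5.34 FPKM in CTG and 35.1 ± 2.98 FPKM in STG, and at 64.2 ± 1.03 in CSp5C and 63.7 ± 0.436 in SSp5C (TG minus Sp5C −0.86, limma adjusted p = 3.33e-07). The related receptor Lrp2 stayed under the filter. Of the astrocyte markers, 11 of 12 were called lower in TG (35% of all genes were), with a median difference of −2.52. Their mean log2 level was 3.36 to 3.86 in TG and 6.10 to 6.38 in Sp5C, with summed FPKM of 379 to 422 in TG and 1265 to 1636 in Sp5C and no member at 0 throughout. Satellite glia markers, for the glia that wrap ganglion neurons, averaged 6.27 to 6.48 in TG and 6.17 to 6.54 in Sp5C. Of these 8 markers, 5 were called higher in TG and 3 lower. Markers of central neurons (7 of 7, median −5.84), oligodendrocytes (6 of 6, −3.99) and endothelium (5 of 7, −0.55) were also called lower in TG. Those of sensory neurons (9 of 9), Schwann cells (6 of 6) and fibroblasts (5 of 6) were called higher. Of all genes, 71.2% were called in either direction. Some markers of neurons, Schwann cells and oligodendrocytes reached the filter mean of 1 FPKM only through 1 tissue, so their direction was fixed in advance. Examples are Scn10a (118 FPKM in CTG, 0.108 in CSp5C), Egr2 (4.27 and 0.0143) and Gad2 (0.0350 and 38.7). The part of these cells in the metallothionein levels was not tested.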

How the data were processed

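Total RNA was sequenced from TG and Sp5C in 12 libraries. Per the labels' protocols, 3 µg of Trizol-extracted RNA per library was depleted of ribosomal RNA and made into stranded libraries. The submitters' processing notes name Cuffdiff 2.1.1, StringTie 1.3.1 and HISAT2, and the build used upstream is not given in the sources used here. FPKM per transcript and library were deposited by the authors. From these, FPKM were summed per gene, genes with a mean of at least 1 FPKM over the libraries compared were kept, and log2(FPKM + 1) was fitted with limma 3.58.1 in R 4.3.3 (trend, robust, two-sided, Benjamini-Hochberg over all genes, threshold 0.05, R package data.table, version 1.17.8). C minus S used the 6 libraries of a tissue, TG minus Sp5C all 12. Transcripts were fitted in the same way. Shares of the family were compared by exact permutation (scipy 1.17.1). The fits were also run on simulated data with independent normal noise for each gene. Such data hold no outlying libraries and no genes that vary together, so they do not show how the fits behave with these libraries.

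Depth was estimated from the steps between low FPKM values of transcripts of at least 3000 bases. FPKM levels of short transcripts depend on the assembler's length correction. Coordinates and coding sequences come from GENCODE M21 (GRCm38), matched by the IDs in the tables, since the tables hold no coordinates, and promoters from RefSeq (GRCm38.p6). Of the table's transcripts, 99.7% were found in GENCODE M21. Figures were drawn with matplotlib 3.10.9.

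Members, gene lists, marker lists, tests and alternatives were chosen with earlier results of these data known. Named were the members with Mt4, the 3 list genes with the smallest p in each comparison, the 5 genes most alike each member in pattern, and genes within 100 kb. Outside this rule, and named after their values were seen, are Lrp2, Mtf1, Stat3 and Nr3c1 in C minus S, Slc30a1 in CTG minus STG, and Zbtb16 and Dusp1 in TG minus Sp5C. Same-numbered CTG and CSp5C libraries correlated at 0.23 to 0.38 in their deviations from group means, so the C libraries were also fitted as pairs, an alternative added after the data were seen. The labels do not say what the number marks, and same-numbered STG and SSp5C libraries correlated at −0.20 to −0.023. Libraries of a group had Pearson r of 0.974 to 0.989 and at most 0.0115% identical values, so none was a copy. Alternatives covered the pseudocount (0.1 and 5), the filter (none and a mean of 5 FPKM), scaling, the prior, a replicate block, each library left out, the highest transcript per gene, a fit of all 12 libraries, and each letter alone.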

Additional observations from a re-analysis of the deposited data

How the results depend on the processing

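The TG minus Sp5C differences kept their sign in all 25 alternatives for each member, at −2.16 to −1.68 for Mt1, −1.72 to −1.28 for Mt2 and −0.51 to −0.37 for Mt3, and stayed past the threshold except Mt3 in the C libraries alone (−0.39, limma adjusted p = 0.0836). With the replicate block in the C libraries, chosen after seeing the data, that value was the same and its limma adjusted p was 0.00513. The CTG minus STG differences were 0.72 to 0.83 for Mt1 and 0.91 to 1.13 for Mt2. That of Mt3 was 0.10 (without CTG replicate 3) to 0.34. The CSp5C minus SSp5C differences never passed. With 1 library left out they were 0.21 to 0.45 for Mt1, 0.46 to 0.76 for Mt2 and −0.024 to 0.21 for Mt3, whose sign turned without CSp5C replicate 3.

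The count of genes passing for CTG against STG, 1, was 0 with a mean of at least 5 FPKM, with the replicate block and in the fit of all 12 libraries, 2 after quantile normalization, 6 with the highest transcript of each gene, and 0 (without CTG replicate 2 or 3) to 7 (without CTG replicate 1) with 1 library left out, with 3 without STG replicate 2. For CSp5C against SSp5C, 4 became 0 with a mean of at least 5 FPKM, with the block and in the fit of all 12 libraries, 2 with the highest transcript, and 0 (without SSp5C replicate 2) to 8 (without CSp5C replicate 3) with 1 library left out, with 1 without SSp5C replicate 1 and 7 without CSp5C replicate 1. The cause was not tested.

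Same-numbered C and S libraries of a tissue correlated at −0.15 to 0.19 in their deviations from group means, so the numbers were not taken to pair them. The replicate block changed no member's call and left 9267 genes passing between the tissues, against 9314. Depth is an estimate from FPKM steps, so no interval for counting error is given.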

Other observations

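The numbers of the C libraries showed a pattern across the tissues that the labels do not explain. Over all genes, deviations from the group mean correlated at r = 0.33, 0.23 and 0.38 between CTG and CSp5C libraries of the same number, against at most −0.007 for any other number. The deviations of a group cancel out for each gene, so a positive r for the same number lowers r for the others. The values for other numbers are therefore not separate evidence. Between STG and SSp5C libraries of the same number r was −0.20 to −0.02. Mt3 was the highest of its group in replicate 3 of both C groups, at 127 FPKM in CTG and 170 FPKM in CSp5C. The labels do not say whether a number marks an animal.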
